A study of Homo sapiens with 3 samples.

Results

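FOXA2 binding was described across the type I and type II keratin gene clusters, the stretches of chromosomes 17 and 12 that hold nearly all keratin genes. The members were all peaks whose midpoint fell on chromosome 12 from 52510000 to 53397000 (type II keratins) or on chromosome 17 from 38760000 to 39835000 (type I keratins and keratin-associated proteins), on hg19. They numbered 79 of the 63949 peaks of replicate 1 and 35 of the 26907 peaks of replicate 2. The data come from chromatin immunoprecipitation and sequencing in Caco2, an established human colorectal adenocarcinoma line grown without a stated treatment. The 3 libraries were 2 replicate FOXA2 immunoprecipitations, made with the same antibody, and 1 input library without antibody that served the peak calling. Replicate 1 held 26183147 tags and replicate 2 held 15756702. No label states whether the replicates were separate cultures, and both libraries represent 1 cell line.

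Keratins are the intermediate filament proteins of epithelia, and each filament is built from pairs of a type I and a type II chain. Simple epithelia such as the gut lining use KRT8 (type II) with KRT18, KRT19 and KRT20 (type I), whereas most other members of both clusters belong to epidermis and other stratified epithelia, hair follicle or hair shaft. KRT18 is an exception in place: it is a type I keratin that sits beside KRT8 at the end of the type II cluster. FOXA2 is a forkhead factor of endoderm-derived epithelia that can bind compacted chromatin. The series holds no expression values, so the levels of these keratins in the cells were not checked.

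RefSeq gene order was used here for names and neighbours only. In it the type II cluster runs from KRT80 and KRT7 at its low-coordinate end to KRT8 and KRT18, after which EIF4B follows. Between them lie 6 hair, 5 hair follicle and 12 epidermal or stratified keratins. In the type I cluster KRT20 lies between KRT12 and KRT23. Between KRT20 and KRT19 lie 11 hair keratins and 34 keratin-associated protein genes, which encode the matrix of the hair shaft. Beyond KRT19 come KRT9, KRT14, KRT16 and KRT17, keratins of stratified epithelia. The positions of the simple-epithelium genes on hg19 were taken as 53.29 to 53.35 Mb on chromosome 12 for KRT8 and KRT18, and as 39.03 Mb for KRT20 and 39.68 Mb for KRT19 on chromosome 17, given to the nearest 0.01 Mb. A window of 50 kb on either side of each, kept within the interval, is called the KRT8-KRT18, KRT20 or KRT19 window. Sites were not assigned to other single genes, because the gene table used is on another build.

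Start-site sequences of the clusters were read from RefSeq (GRCh38.p14) to show what forkhead core words they hold. The words searched were TGTTTAC or TGTTTGC or TATTTAC or TATTTGC on both strands of 300 bases around each start, and 14.4% of the 27305 genes in the RefSeq table held at least 1 of them at any of their listed starts. Those shown are KRT8 and KRT20, the simple-epithelium genes with an entry, and KRTAP9-2, as an example of the keratin-associated protein genes. Each is written 5′ to 3′ on the gene's strand, with 250 bases before the start and 30 after it, and capitals mark a core word.
KRT8, GRCh38.p14 chr12:52926440-52926719, minus strand: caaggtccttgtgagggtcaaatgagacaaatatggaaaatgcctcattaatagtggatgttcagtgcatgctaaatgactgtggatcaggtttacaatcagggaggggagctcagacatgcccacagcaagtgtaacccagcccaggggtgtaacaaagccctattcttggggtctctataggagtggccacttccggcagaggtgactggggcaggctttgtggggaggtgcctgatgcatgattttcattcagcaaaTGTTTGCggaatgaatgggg
KRT20, GRCh38.p14 chr17:40885213-40885492, minus strand: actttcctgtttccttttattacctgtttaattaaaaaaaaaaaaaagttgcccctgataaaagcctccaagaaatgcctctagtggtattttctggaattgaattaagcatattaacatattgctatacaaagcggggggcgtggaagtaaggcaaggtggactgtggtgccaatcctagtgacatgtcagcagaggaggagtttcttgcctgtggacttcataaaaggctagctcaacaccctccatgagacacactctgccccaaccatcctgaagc
KRTAP9-2, GRCh38.p14 chr17:41226398-41226677, plus strand: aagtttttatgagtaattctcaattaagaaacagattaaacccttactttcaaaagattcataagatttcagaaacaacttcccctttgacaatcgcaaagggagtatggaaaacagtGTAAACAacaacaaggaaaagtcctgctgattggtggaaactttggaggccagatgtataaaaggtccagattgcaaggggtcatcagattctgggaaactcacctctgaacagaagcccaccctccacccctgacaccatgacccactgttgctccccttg

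The KRT8 stretch held a single TGTTTGC, beginning at base 11 of the transcript, the KRT20 stretch held none of the 4 words, and KRTAP9-2 held TGTTTAC on the opposite strand. The start used for KRT8 lies inside the gene's listed span, so KRT8 has at least 1 other start that is not shown. Of the 67 keratin and keratin-associated protein genes with an entry on chromosomes 12 and 17, 20 held a core word (29.9%). These were 15 of 33 keratin-associated protein genes (45.5%), 2 of 14 hair keratins and 1 of 8 hair follicle keratins. The others were 1 of 10 epidermal or stratified keratins and 1 of 2 simple-epithelium keratins. Many keratin-associated protein genes are near copies of each other, so their matches are not independent. Whether a peak covers any of these starts was not determined, since sequence and peaks are on different builds.

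FOXA2 peaks in the keratin intervals were found by both replicates about as often as peaks elsewhere. A position called in both libraries, with at least 1 bp in common, is termed a shared site and is given by its replicate 1 peak. In the intervals 33 of 79 replicate 1 peaks were shared, or 41.8% (95% Wilson interval 31.5% to 52.8%, counting error only), beside 38.1% of all replicate 1 peaks. Of the 35 replicate 2 peaks, 33 had a replicate 1 partner, beside 90.5% of all replicate 2 peaks. With a score of at least 10 in replicate 1, 29 of 37 members were shared, beside 73.6% genome-wide, and with a lower score 4 of 42 were, beside 14%. The score is the authors' tag count of a peak scaled to 10000000 tags per library (normalised tags).

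Shared FOXA2 sites were denser in the KRT8-KRT18, KRT19 and KRT20 windows than in the rest of the intervals. At KRT20 none lay closer than 28.4 kb to the position taken for the gene. Both intervals together held 1.68 shared sites per 100 kb, or 2.03 times the genome's 0.828. Chromosomes 12 and 17 as a whole held 0.93 and 0.97, somewhat above the genome. Of genome windows as long as the type II interval 7.96% held as many shared sites as its 18, and of those as long as the type I interval 20.7% held as many as its 15. The 3 simple-epithelium windows held 17 shared sites in 357 kb, or 4.76 per 100 kb. The rest of the intervals held the epidermal and hair keratins and the keratin-associated proteins, but also, by gene order, KRT80 and KRT7 and possibly KRT23, listed here with the simple-epithelium keratins. It had 16 shared sites in 1605 kb, or 0.997 per 100 kb, which is close to the genome's density. The windows were thus 4.78 times as dense as the rest. By gene order the windows may also hold stratified keratins, since KRT78, KRT12, KRT15 and KRT9 directly neighbour KRT8, KRT20 and KRT19. The ratio therefore compares stretches, not simple-epithelium genes with other keratin genes. In each replicate's whole list the windows were also denser, with 9.24 against 2.87 peaks per 100 kb in replicate 1 and 5.32 against 0.997 in replicate 2. The replicate 2 list adds little to this, since 33 of its 35 members belong to the shared sites already counted. With 2 replicates of 1 condition no test over samples could be made, and these ratios are descriptions.

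**Figure D1:**
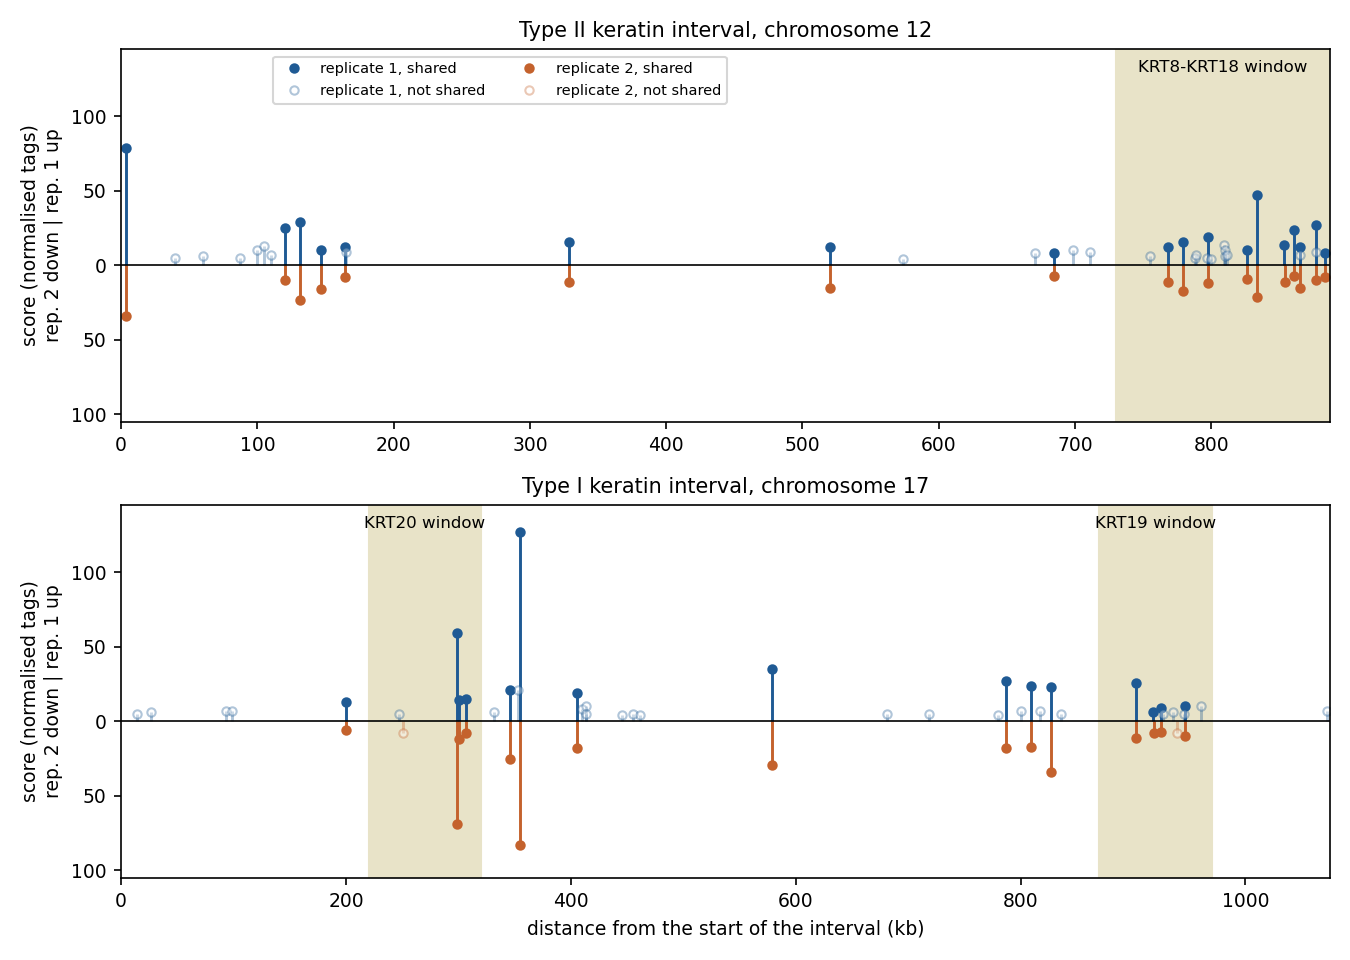
FOXA2 peaks along the type II interval (top) and the type I interval (bottom), by distance from the start of the interval in kb. Stems give the score in normalised tags, upward for replicate 1 and downward for replicate 2, filled points are shared, open points were found in 1 replicate alone, and shading marks the simple-epithelium windows. Shared sites crowd the KRT8-KRT18 window, while the highest stem, with scores of 127 and 83, stands outside the shaded KRT20 window.

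The KRT8-KRT18 window was the densest of all. It held 21 replicate 1 peaks, 10 replicate 2 peaks and 10 shared sites in 157 kb, or 6.37 shared sites per 100 kb, against 1.10 in the rest of the type II interval, a stretch whose 8 shared sites were reached by 33.4% of genome windows of its length. Among the 18722 windows of 157 kb that tile the genome, 0.465% held at least 10 shared sites and 0.176% held at least 21 replicate 1 peaks. The median such window held 1 shared site. Within the KRT8-KRT18 span itself lay 11 replicate 1 peaks and 3 shared sites, in the 50 kb before it 3 and 2, and in the 47 kb after it, on the EIF4B side, 7 and 5. The shared density was therefore not highest over the 2 keratin genes but just beyond KRT18, at 10.6 per 100 kb against 5.0 over the span.

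The strongest site of the KRT8-KRT18 window lay inside the span, at chr12:53343669-53343791, near the end where KRT18 lies. It scored 47 in replicate 1 and 21 in replicate 2 (34 ± 18.4, mean ± SD, n = 2). Of all peaks, 4.36% scored at least as high in replicate 1 and 24.8% in replicate 2, so it ranked high in 1 library and moderately in the other. The other shared sites of the span scored 19 and 12 at chr12:53307263-53307385 and 10 and 9 at chr12:53335881-53336003, replicate 1 first here and below. Just before the span, chr12:53289275-53289397 scored 16 and 17, and chr12:53278363-53278485 scored 12 and 11. These 2 sites had nearly equal scores in both libraries.

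At 2 sites beyond the span the replicates differed more than at any other site of the window. The site at chr12:53370626-53370748 scored 24 and 7, a ratio of 3.43, and the one at chr12:53386817-53386939 scored 27 and 10, a ratio of 2.70. The median ratio of replicate 1 to replicate 2 over all shared sites was 1.20. Both sites lay more than 2-fold from it. In all 3 of the 33 members did, beside 9.77% of all shared sites. The remaining sites beyond the span, at chr12:53363691-53363813, chr12:53375159-53375281 and chr12:53393272-53393394, scored 14 and 11, 12 and 15, and 8 and 8. Their replicates were close.

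A run of replicate 1 peaks covered much of the span. From 53289275 to 53321440, 10 replicate 1 peaks followed each other with no more than 10 kb between neighbours, the run with the most peaks in either interval. Their scores ran from 4 to 19, and 2 of the 10 were shared, those of 16 and 19. The next, of 6 peaks with scores from 5 to 10, lay at KRT19 from 39678159 to 39706199, and 3 of its peaks were shared. Both of these runs lay in simple-epithelium windows. The third, of 5 peaks with scores from 5 to 24, lay outside them, from 39560399 to 39595890 on chromosome 17. How often runs of such lengths occur in the genome was not counted.

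At KRT19 the sites were close but weak. The window held 8 replicate 1 peaks, 5 replicate 2 peaks and 4 shared sites in 100 kb, and 5.45% of 29401 genome windows of 100 kb held at least 4 shared sites. The shared site chr17:39678159-39678281 lay 1.78 kb from the position taken for the gene and scored 6 and 8. Another, chr17:39684610-39684732, lay 4.67 kb from that position and scored 9 and 7. Both distances are within the rounding of the position, so which of these sites lies closer to the gene or its start was not determined. Scores of 6 and 8 are low values: 72.5% of replicate 1 peaks and 84.4% of replicate 2 peaks scored at least as high. The highest score of the window was at chr17:39662752-39662874, on the KRT15 side, with 26 and 11, and chr17:39706077-39706199 scored 10 and 10.

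At KRT20, a keratin of differentiated intestinal cells, the sites were fewer and lay farther from the position taken for the gene. No replicate 1 peak lay within 23.2 kb of the position taken for the gene and no replicate 2 peak within 19.4 kb. The 3 shared sites of the window all lay on the KRT23 side, 28.4 to 36.3 kb away. The first of them, chr17:39058372-39058494, was strong in both libraries, with 59 and 69 (64 ± 7.07, n = 2). Of all peaks, 2.74% scored as high or higher in replicate 1 and 3.28% in replicate 2. It stood 1.64 kb from chr17:39060008-39060130, which scored 14 and 12, and chr17:39066271-39066393 scored 15 and 8. Of the genome windows of 100 kb, 10.6% held at least 3 shared sites, and with 25 kb on either side the KRT20 window held 0.

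**Figure D2:**
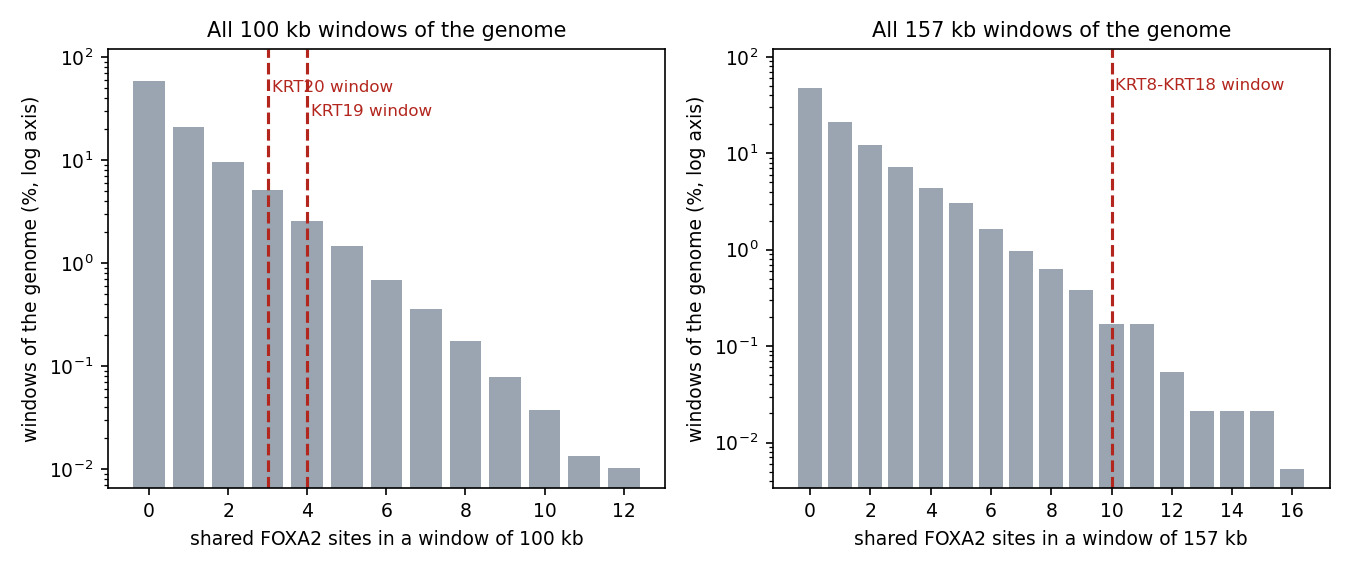
Share of genome windows (percent, log axis) by the number of shared FOXA2 sites they hold, for windows of 100 kb (left) and of 157 kb (right). Dashed lines mark the KRT20 window with 3 sites, the KRT19 window with 4 and the KRT8-KRT18 window with 10, of which the last lies farthest into the tail, at 0.465% of windows.

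In the rest of the intervals the sites were mostly scattered, but the strongest of them scored above every site in the windows. The strongest of both clusters, chr17:39114464-39114586, scored 127 and 83 (105 ± 31.1, n = 2) and lay between KRT20 and KRT19, on the KRT20 side. In gene order KRT23 follows KRT20 there, and the gene closest to this site was not determined. The site was matched or exceeded by 0.43% of replicate 1 peaks and 2.0% of replicate 2 peaks. A shared site of 21 and 25 stood 8.57 kb before it at chr17:39105889-39106011, and a replicate 1 peak of 21 at 1.24 kb from it had no replicate 2 partner. Together with the strong site of the KRT20 window, it held 43.5% of the summed replicate 1 score and 42.8% of the summed replicate 2 score of the 15 shared type I sites.

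The rest of the stretch between KRT20 and KRT19, 550 kb with the hair keratins and the keratin-associated proteins, held 5 more shared sites, all of moderate score. They lay at chr17:39165655-39165777 with 19 and 18, chr17:39338921-39339043 with 35 and 29, chr17:39546770-39546892 with 27 and 18, chr17:39569438-39569560 with 24 and 17, and chr17:39586927-39587049 with 23 and 34. The stretch as a whole held 1.27 shared sites and 3.82 replicate 1 peaks per 100 kb, against 0.828 and 2.17 in the genome, and 26.7% of genome windows of that length held as many shared sites or more. Its longest part without a peak of either replicate ran 117 kb, from 39221442 to 39338903, and another of 102 kb followed the site at 39338921. Gaps of at least 117 kb made up 8.03% of all gaps between peaks and 52.4% of the genome's gap length. How uniquely reads align to these closely related gene copies was not tested.

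The outer parts of the type I interval held few shared sites. Before the KRT20 window, where KRT222, KRT24 and the inner root sheath keratins KRT25 to KRT28 come first in gene order, 220 kb held 5 replicate 1 peaks and 1 shared site, chr17:38960000-38960122 with 13 and 6. At least 1 shared site was held by 60.4% of genome windows of that length. In this stretch replicate 1 peaks numbered 2.27 per 100 kb, beside 2.17 in the genome. Beyond the KRT19 window, where KRT14, KRT16 and KRT17 follow, 105 kb held 1 replicate 1 peak and 0 shared sites. Of genome windows of 100 kb, 58.9% held 0 shared sites, so such a stretch is common.

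In the type II interval outside the KRT8-KRT18 window, most shared sites lay toward the low-coordinate end, where KRT80 and KRT7 open the cluster. KRT7 is a keratin of glandular and ductal simple epithelia. The first 200 kb held 5 of the 8 shared sites. How often genome windows of 200 kb hold as many was not counted. In the second 100 kb lay 4 of them, and 5.45% of genome windows of 100 kb held at least 4. None of the 8 had another shared site within 10 kb, which 39% of all shared sites had. The outermost, chr12:52513234-52513356, scored 79 and 34 (56.5 ± 31.8, n = 2) and lay 3.29 kb inside the interval's limit. It was followed by chr12:52629953-52630075 with 25 and 10, chr12:52641263-52641385 with 29 and 23, chr12:52656637-52656759 with 10 and 16 and chr12:52674320-52674442 with 12 and 8. This end was not among the windows, so it counts toward the rest in the comparison above.

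The middle of the type II cluster held few peaks. From the sites of the low-coordinate end to the KRT8-KRT18 window there were 3 more shared sites. They lay at chr12:52838668-52838790 with 16 and 11, chr12:53030437-53030559 with 12 and 15 and chr12:53194731-53194853 with 8 and 7. Peaks of either replicate were missing for 192 kb from 52838808 to 53030436 and for 164 kb from 52674732 to 52838667. Of all gaps between neighbouring peaks, 4.11% were at least as long as the first and 5.15% as long as the second, but gaps of at least 192 kb covered 39.2% of the genome's gap length.

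**Figure D3:**
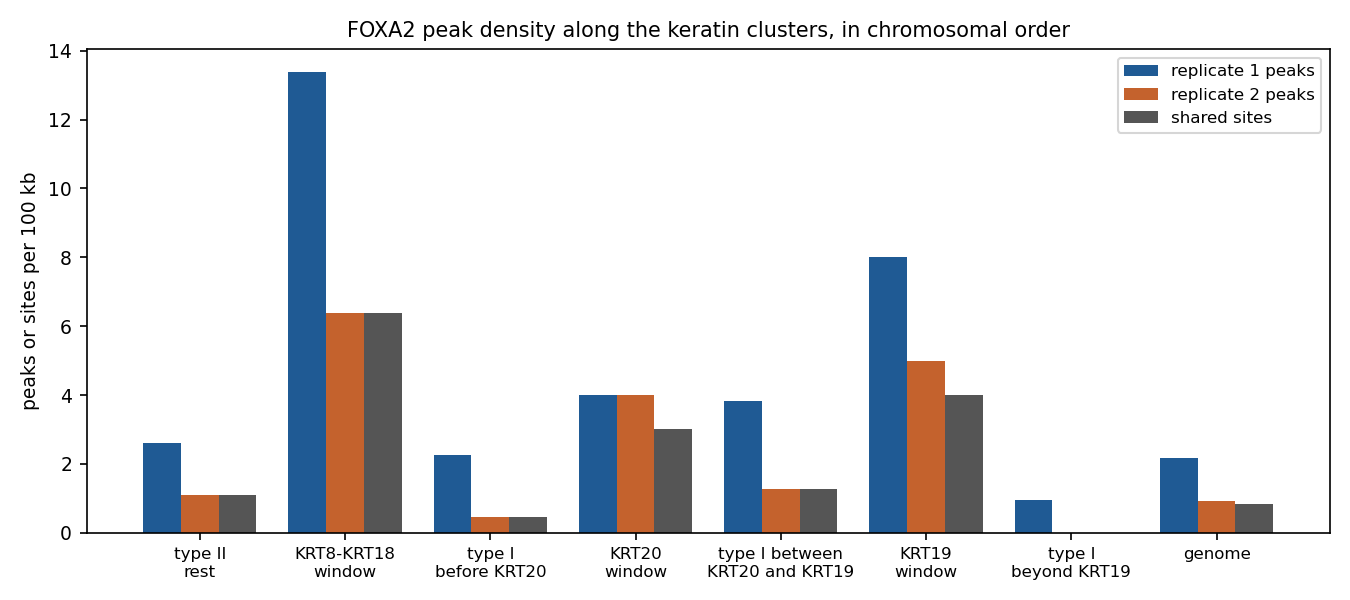
FOXA2 peaks or shared sites per 100 kb in each stretch of the keratin intervals, in chromosomal order, and in the genome. Bars give replicate 1 peaks, replicate 2 peaks and shared sites; the KRT8-KRT18 window reaches 13.4, 6.37 and 6.37, and the stretch beyond KRT19 has 0.952 replicate 1 peaks and no others.

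Shared sites at the simple-epithelium ends were denser but not stronger. The 17 shared sites of the windows had a median mean score of 13 (7 to 64), against 19.5 (7.5 to 105) for the 16 in the rest and 14.5 for all shared sites. The ranges overlapped almost wholly. In replicate 1 the medians of the shared sites were 14 and 22, and in replicate 2 they were 11 and 17.5. Over all replicate 2 peaks, shared or not, the medians were 10 and 17.5, but over all replicate 1 peaks they were 10 in the windows and 8 in the rest, the reverse order. A mean score of at least 50 was reached by 3 of the 33 members, beside 8.09% of all shared sites, and 1 of the 3 lay in a window.

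**Figure D4:**
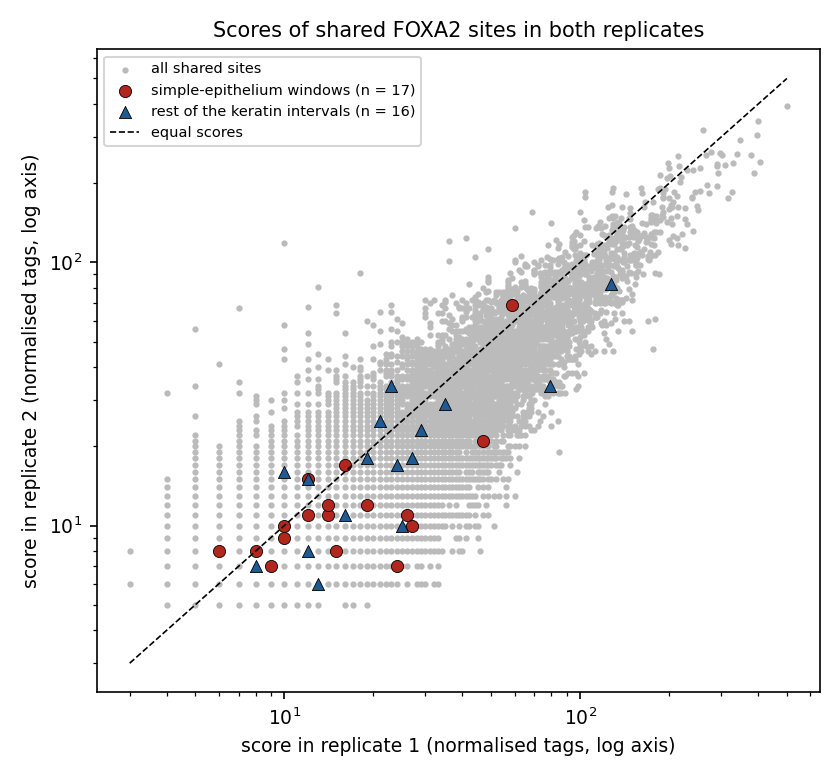
Scores of shared FOXA2 sites in replicate 1 (horizontal) and replicate 2 (vertical), in normalised tags on log axes, for all shared sites (grey), the 17 in the simple-epithelium windows (circles) and the 16 in the rest of the keratin intervals (triangles). The dashed line marks equal scores; both sets lie within the grey cloud, and the highest triangle is the site with 127 and 83.

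Sites in the windows also lay closer together, which their density entails in part. Another shared site lay within 10 kb for 12 of the 17 sites in the windows and for 2 of the 16 in the rest, beside 39% of all shared sites. The 2 were the strongest site of the clusters and its neighbour. Replicate 1 gave the higher score at 23 of the 33 members, replicate 2 at 8, beside 29.7% of all shared sites, and 2 were equal. Peak centres of the same site were a median of 15 bp and at most 67 bp apart.

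The contrast between windows and rest was steadier for the type II than for the type I cluster. In the type II interval the density ratio was 5.81, and 4.50 to 6.20 under the alternatives. In the type I interval it was 3.83 (7 sites in 200 kb against 8 in 875 kb), but 2.44 with 25 kb on either side of the positions, 2.50 with a score of at least 10 in both replicates and 1.94 from the replicate 1 list alone.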

How the data were processed

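FOXA2 ChIP-seq peak lists of 2 replicates from Caco2 cells were used, and the values of the input library were not analysed here. The submitters' processing notes name hg19 as the build, Bowtie 1.0.0 and HOMER 1.2; alignment settings are not given in the sources used here. Peaks were called by the authors with HOMER findPeaks in factor style, in each replicate separately against input, per the file headers. The caller required 4 times the tags of the input and 4 times those of the local region of 10000 bp. The deposited score is a whole number, read as the authors' tag count scaled to 10000000 tags per library: rescaled, its sum was within 0.45% of the headers' tags in peaks. A unit stands for 2.62 tags in replicate 1 and 1.58 in replicate 2. Peaks were 123 bp and 151 bp wide.

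Overlaps were computed with bedtools 2.31.1 and checked on simulated data; other steps used Python 3.11.15, numpy 2.4.6, scipy 1.17.1, pandas 2.3.3 and matplotlib 3.10.9. Genome densities are per length between the first and last peak of chromosomes 1 to 22 and X, and genome windows tile the same stretches. No centromere or assembly gap was taken out of these lengths. Coordinates are 1-based. The intervals, gene groups and comparisons were chosen with earlier results of these data known. The text names the 12 shared sites with the highest mean score in the windows, the 10 highest in the rest, the longest gaps, and in addition the remaining shared sites. The planned count of keratin genes near a site and the motif share of peaks need an hg19 annotation or genome and were not run. Sequences are from RefSeq (GRCh38.p14).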

Additional observations from a re-analysis of the deposited data

How the results depend on the processing

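Of 41 alternatives, 36 left the value the same, 4 moved it and 1 reversed it. The same meant within 1.5 times for densities and ratios, and within the 95% Wilson interval for the share of shared peaks. For the difference in median score it meant within 6.72, the SD of that difference between the replicates. That limit is larger than the size of the main difference (-6.5), so it could not tell a lost difference from a kept one. Leaving out a replicate, that is using the other's whole list, gave 1.78 to 4.03 sites per 100 kb in the intervals, where the main value was 1.68; the higher value comes from the longer list of replicate 1, and it was 1.85 times the genome's own density in that list. The density ratio of windows to rest then ran from 3.23 to 5.34 over both clusters, from 5.14 to 5.81 in the type II interval and from 1.94 to 4.92 in the type I interval. The type I ratio also moved to 2.50 with a score of at least 10 in both replicates. It moved to 2.44 with windows of 25 kb, where the KRT20 window holds no shared site, which depends on the point taken for KRT20. The difference in median score, windows minus rest, was -6.5 and reversed to 2.0 without replicate 2 (-7.5 without replicate 1); the cause was not tested. With midpoints within 500 bp, 46.8% of replicate 1 members were shared. No paired analysis was possible because the replicates form a single group. Of the 42 members with a replicate 1 score under 10, 4 were found again in replicate 2; the part of depth in this was not tested.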

Other observations

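Peaks found in a single replicate were mostly weak. The 46 replicate 1 members without a partner scored 4 to 21, with a median of 6. The 2 replicate 2 members without a partner both scored 8 and lay in simple-epithelium windows, at chr17:39010498-39010648 in the KRT20 window and at chr17:39698740-39698890 in the KRT19 window. The nearest replicate 1 peaks lay 3.83 kb and 3.14 kb away. Just outside the intervals, the nearest replicate 1 peaks scored 5 and 7 on chromosome 12 and 7 and 5 on chromosome 17, and none of the 4 was shared. The nearest replicate 2 peaks outside scored 9 and 8 on chromosome 12 and 7 and 6 on chromosome 17, and all 4 were shared.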
